A study of Homo sapiens with 2 samples.

Results

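The genes described here encode the protein subunits of the cytosolic ribosome. They were chosen by name alone, as annotated genes outside chromosome Y whose symbol is RPL or RPS with a number and at most 1 closing A, X or L, together with RPLP0, RPLP1, RPLP2 and RPSA. The rule found 83 genes, 49 of the large and 34 of the small subunit, among 55283 annotated symbols. They were 77 standard ribosomal protein names and 6 copies or paralogs, among them RPL3L, RPL10L, RPL39L, RPS10L and RPS27L. Of the 83, 80 passed a mean level of at least 1 TPM (a length-corrected share of all transcripts), as did 13665 genes of the series in all. RPL10L was listed at 0 in both libraries, RPL3L was at 0.731 TPM in SC against 0.565 in AS, and RPS10L was at 0.731 and 0.604 TPM.

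The study measured RNA of NCI-H2030, an established human lung adenocarcinoma line, in 1 library of cells given SC and 1 library of cells given miR-494-3p AS. The labels do not spell out SC or AS, and give no dose or time. Each group was a single library without replicates, so there was no test, p-value or error, and each comparison holds for this pair of libraries. The depth in reads is unknown. The ratio of coverage to FPKM, which scales with the aligned bases, was 3.62 for SC and 3.54 for AS, and the AS library held more genes at 1 TPM or more, 14172 against 12812. The keratins KRT7, KRT8 and KRT18 were at 67.9, 486 and 558 TPM in SC and 55.2, 345 and 479 TPM in AS, whereas EPCAM was at 0.604 and 1.84 TPM and CDH1 at 0.00741 and 0.0137 TPM. KRT19, SFTPC and SFTPA1, markers of simple and alveolar epithelium, were at 0 in both libraries. NKX2-1, a lung lineage factor, was at 0.0324 TPM in SC against 0.0317 in AS. Of the other lung markers, NAPSA was at 1.62 and 1.04 TPM and SFTPB at 0.0239 and 0.0538 TPM. Of the defining markers of other cells, PTPRC and CD3E of blood cells were at 0 in both libraries. CD68 was at 285 TPM in SC against 203 in AS, and the collagens COL1A1 at 26.3 and 15.8 TPM and COL3A1 at 4.32 and 7.23 TPM; their part in the results was not tested.

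The ribosome joins a large subunit, which forms peptide bonds and holds the exit tunnel, and a small subunit, which decodes the mRNA. Each protein is present about once per ribosome, apart from the stalk proteins, so growing cells make these proteins in balanced amounts, largely by controlling the translation of mRNAs that begin with a run of pyrimidines called a 5' terminal oligopyrimidine (TOP) tract. The TOP tract is read by growth signalling through mTORC1 and LARP1, which alters translation and mRNA stability.

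The windows below run from 15 bases before to 14 bases after the start of the annotated transcript, so that the start is base 16. They come from RefSeq's GRCh38.p14 annotation and are shown, where the table lists them, for the 6 genes of lowest and the 6 of highest TPM ratio, for 3 of the most abundant genes and for RPS27L. Capitals mark the tract, a C followed by at least 4 C or T on the transcribed strand, that begins within 5 bases of the start.
RPL12, chr9:127451392-127451421, minus strand: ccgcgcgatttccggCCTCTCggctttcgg
RPS9, chr19:54200843-54200872, plus strand: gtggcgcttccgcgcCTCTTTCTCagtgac
RPL3, chr22:39319609-39319638, minus strand: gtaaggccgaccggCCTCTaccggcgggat
RPL7A, chr9:133348203-133348232, plus strand: ccacaattccctttcCTTTCTCTCTCCTCC
RPL13A, chr19:49487593-49487622, plus strand: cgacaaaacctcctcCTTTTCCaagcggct
RPL27A, chr11:8682777-8682806, plus strand: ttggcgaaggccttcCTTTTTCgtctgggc
RPS10, chr6:34426055-34426084, minus strand: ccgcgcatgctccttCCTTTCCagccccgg
RPS3A, chr4:151099613-151099642, plus strand: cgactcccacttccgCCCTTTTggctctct
RPL6, chr12:112411428-112411457, minus strand: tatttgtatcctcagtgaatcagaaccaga
RPL9, chr4:39458908-39458937, minus strand: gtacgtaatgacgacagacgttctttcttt
RPL19, chr17:39200308-39200337, plus strand: gagcgagctctttCCTTTCgctgctgcggc
RPL41, chr12:56116618-56116647, plus strand: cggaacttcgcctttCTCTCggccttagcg
RPS18, chr6:33272060-33272089, plus strand: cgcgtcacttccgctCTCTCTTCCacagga
RPS27L, chr15:63157463-63157492, minus strand: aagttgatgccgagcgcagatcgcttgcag
All 6 genes of lowest ratio and the 3 abundant ones carry a tract near the start. Of the 4 listed genes of highest ratio, RPS10 and RPS3A carry one, and RPL6 and RPL9 have none within 5 bases of the start. The RPL9 window closes with such a run beyond that limit, and the RPL6 window is 1 of 2 listed starts. RPS27L, a p53-inducible copy of RPS27, has none within 5 bases either. Among all members with a listed start 82.8% carried a tract within 5 bases, so these few windows serve as examples only.

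A listed start was found for 64 of the 83 genes. A tract began exactly at the start in 46 of these 64 (71.9%), in 28 of 39 large-subunit and 18 of 25 small-subunit genes, against 5.14% of all 27305 symbols of the table and 7.07% of 8280 other measured genes. Within 5 bases of the start the counts were 53 of 64 (82.8%) and 25.2% of all symbols. The motif CCGGAAG, searched on both strands of the 300-base promoter windows, was in 23 of 64 (35.9%), against 12.2% of all symbols and 22.8% of other measured genes. Among measured members the 46 with a tract at the start had a median log2 TPM ratio of -0.04 and ranged from -0.93 to 0.82, and the 17 with a listed start and no such tract had a median of -0.07 and ranged from -0.81 to 0.78. In coverage the order of the medians turned, at -0.26 with and -0.21 without the tract.

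The ribosomal protein genes together made up 13.5% of the annotated TPM in SC and 12.8% in AS, at sums of 130812 and 123887 TPM. A TPM is a share of the library, so fewer such transcripts and more of others cannot be told apart, nor can fewer cells of a kind and less RNA per cell. The large-subunit share was 7.78% in SC and 7.20% in AS, and the small-subunit share 5.67% and 5.61%. The median gene stood at 1213 TPM in SC against 1198 in AS for the large subunit, and at 1404 and 1277 TPM for the small subunit. Although the proteins are needed in nearly equal numbers, the deposited TPM of the 77 standard names spanned 47.4-fold in SC and 52.3-fold in AS. It ran from RPS28 at 162 and 141 TPM to RPL19 at 7681 and 7372 TPM. The extremes depended on the measure. In coverage they were RPL22, at 39.7 in SC and 49.6 in AS, and RPL41, at 5495 and 4277. The 10 most abundant genes held 35.4% of the summed level in SC.

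The order of the genes was nearly the same in both libraries (Spearman's rho 0.92 over 80 genes, as a description). RPL19, a protein of the subunit interface, RPL41, the smallest protein of the ribosome, RPS2, RPS18 and RPL8 held the first 5 ranks in that order in each library. RPL41 was at 6188 TPM in SC against 5342 in AS. RPS2 was at 5869 and 4743 TPM, RPS18, which lies at the head of the small subunit, at 5334 and 4665 TPM, and RPL8 at 5073 and 4420 TPM. RPS16 (3376 and 3024 TPM) and RPS15 (2813 and 2499 TPM) were also among the most abundant of the small subunit, each lower in AS. The copies RPS27L and RPL39L were lowest of the measured members, with RPS27L at 72.3 and 71.6 TPM and RPL39L at 55.2 and 92.0 TPM.

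**Figure D1:**
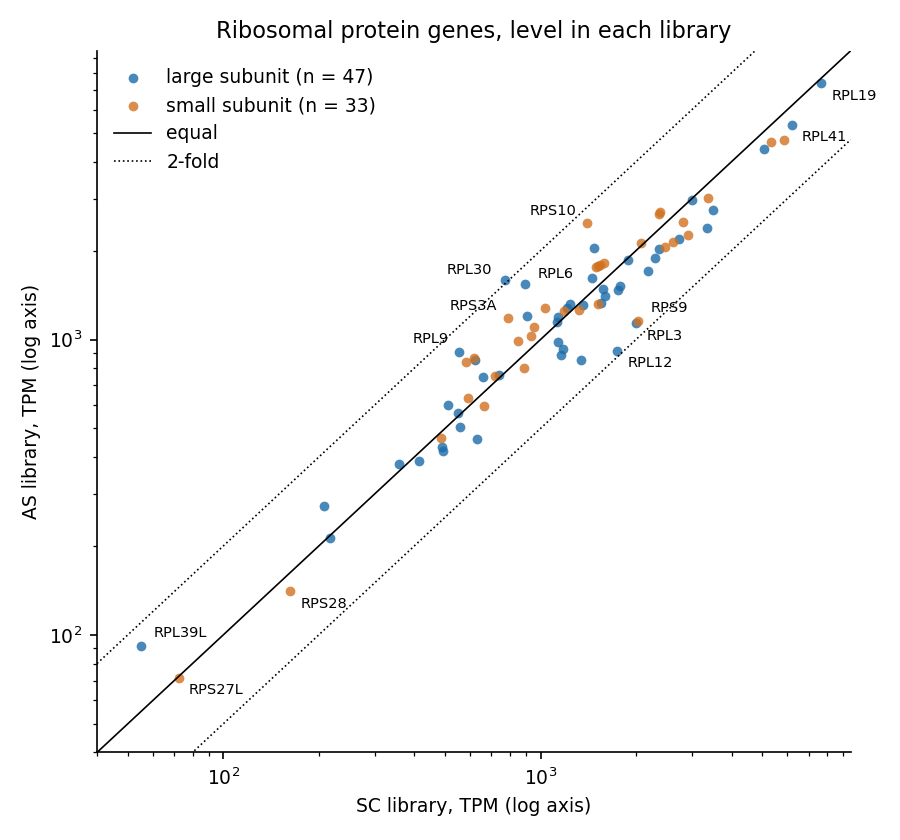
Level of each measured ribosomal protein gene in the SC library (horizontal, TPM, log axis) and the AS library (vertical, TPM, log axis), 47 large-subunit genes in blue and 33 small-subunit genes in orange; the solid line marks equal levels and the dotted lines a 2-fold difference. Nearly all points lie close to the line, with RPL30 at the upper 2-fold line and RPL12, RPL3 and RPS9 near the lower one.

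The ratio of each gene was taken from the deposited TPM as log2((AS + 1)/(SC + 1)), and a gene was counted as higher or lower at 2-fold. In AS 1 of 80 members was at least 2-fold higher, against 16.5% of all measured genes, and none at least 2-fold lower, against 2.17%. At 1.5-fold, a looser threshold added after the data were seen, 5 members were higher, against 34.2% of all measured genes, and 4 were lower, against 7.57%. The other 71 lay within 1.5-fold. All measured genes are a background of lower level, with a median of 8.46 TPM in SC against 1283 for the members. Among the 1435 other genes of 100 TPM or more, with a median of 198 TPM in SC, calls were rarer. Of these 1435, 31 reached 2-fold upwards in AS and 16 downwards, and 147 and 140 reached 1.5-fold. The members' middle 50% ran from -0.22 to 0.19 on the log2 scale, and that of all measured genes from -0.16 to 0.78.

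The median log2 TPM ratio was -0.04 over the 80 members and 0.28 over all measured genes. Relative to that shift of all genes the members were lower in AS, at a median of -0.32 once the ratios were centred on it, while by the deposited values 44 of 80 (55%) were below 0, against 33.8% of all genes. In coverage, the deposited mean read depth per base, 56 of 80 (70.0%) were below 0, against 39.6% of all genes. The median was -0.21, against 0.20. Part of the gap between TPM and coverage is scaling, as TPM per FPKM was 1.98 in SC against 2.13 in AS. In FPKM, which differs from TPM only by that factor, 68.75% of members were below 0, against 39.0% of all genes. At 2-fold in coverage no member was higher, against 15.2% of all genes, and 1 was lower, against 2.96%; at 1.5-fold 2 were higher, against 31.9%, and 5 lower, against 10.7%. Only 13 of the 80 reached the all-gene median of the TPM ratio. Level moved with this result: the 1435 other genes of at least 100 TPM had a median of -0.12 in TPM and -0.26 in coverage, and 60.8% of them were below 0 in TPM. The part of level in the result was not tested.

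The large subunit had the lower median in both measures. In TPM the median was -0.08 for 47 large-subunit genes, 29 of them below 0, and 0.07 for 33 small-subunit genes, 15 below 0. The small-subunit median turned below 0 in other measures and scalings, at -0.03 in FPKM, -0.17 in coverage, -0.04 in the assembled locus and -0.21 in TPM centred on all genes. In coverage the large-subunit median was -0.24, with 36 of 47 genes below 0 and 20 of 33 small-subunit genes below 0. The difference between the medians, large minus small, was -0.15 in TPM and -0.07 in coverage.

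**Figure D2:**
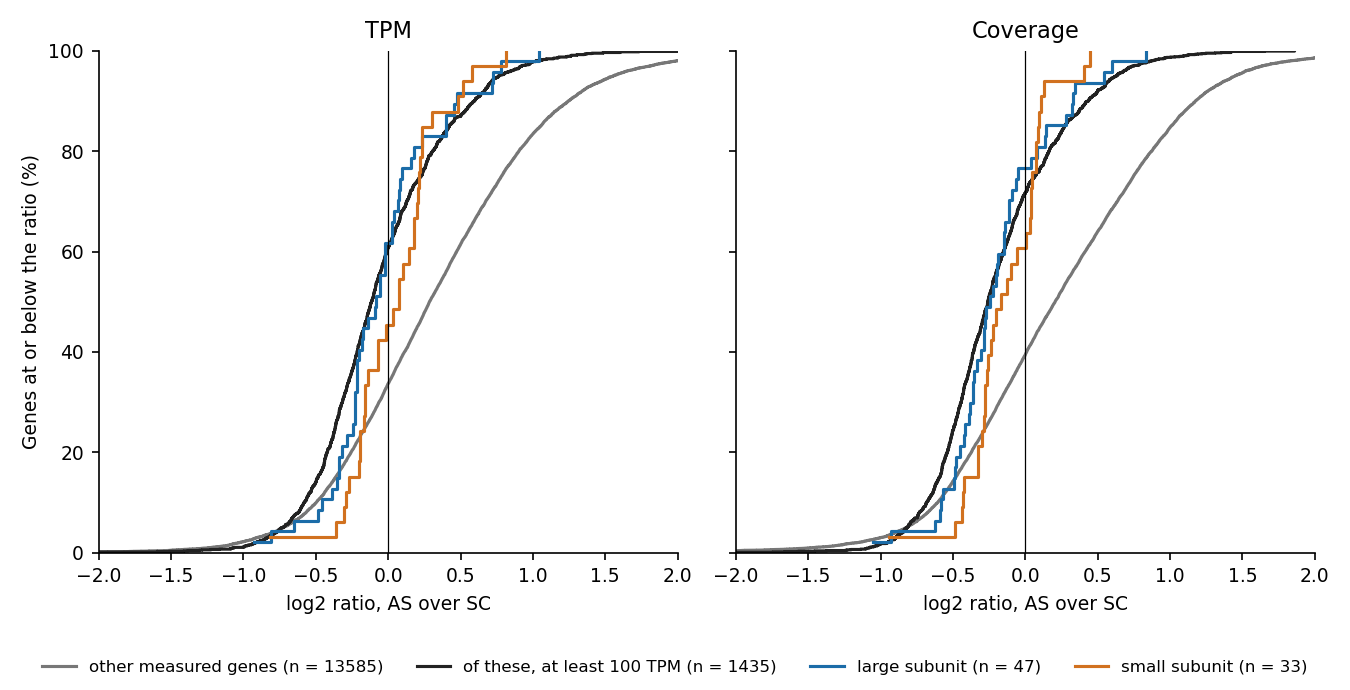
Share of genes (vertical, %) at or below each log2 ratio of AS over SC (horizontal) in TPM at left and coverage at right, for 47 large-subunit genes (blue), 33 small-subunit genes (orange), the 13585 other measured genes (grey) and the 1435 of them of at least 100 TPM (black); ratios beyond 2 in either direction are not drawn. The ribosomal curves lie near the black curve and left of the grey curve over most of the range.

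Genes of several transcripts can change in TPM with no change in reads, so each member was read in 3 measures. These were the TPM of the annotated gene, its coverage, and the TPM of the locus assembled from the reads at the same place. All 3 come from the same reads and are not independent. For many members the locus TPM equals the annotated TPM, as for RPL12 at 1741 and 916 TPM in both, so a shared sign is no separate support. Of 79 members with all 3, 42 were lower in AS in every measure, against 27.8% of 13144 genes with all 3. Another 22 were higher in every measure, against 54%, and 15 were of mixed sign. Because coverage was not scaled between the libraries, its ratio lay below the TPM ratio in most members. A sign can therefore differ through scaling alone, as in RPL24, at 0.02 in TPM, -0.12 in coverage and 0.02 in the locus. At 1.5-fold in every measure 3 members were lower, against 4.12% of those genes, and 1 was higher, against 22.6%.

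The 3 lower members were RPL12, RPS9 and RPL3. RPL12, part of the base of the stalk that recruits translation factors, was at 1741 TPM in SC against 916 in AS, a log2 ratio of -0.93, and its coverage was 831 and 402, a log2 ratio of -1.05. It was the 1 member at least 2-fold lower in coverage. RPS9, a small-subunit protein near the mRNA entry site, was at 2036 and 1157 TPM (log2 ratio -0.81), with a coverage of 632 and 329. RPL3, a core protein of the large subunit that reaches towards the peptidyl transferase centre, was at 1997 and 1137 TPM (log2 ratio -0.81), with a coverage of 1058 and 557. All 3 stood above the members' median of 1283 TPM in SC and below their median of 1269 TPM in AS.

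The member higher in every measure was RPL39L, a copy of RPL39 known best from testis and tumours, at 55.2 TPM in SC against 92.0 in AS, a log2 ratio of 0.73 in TPM and 0.60 in coverage. Its parent gene RPL39, a protein of the exit tunnel, moved the same way by less, from 1471 to 2042 TPM (log2 ratio 0.47; 0.34 in coverage). RPL6 was at 895 and 1540 TPM (log2 ratio 0.78) with a coverage of 474 and 691 (0.54), so that it missed 1.5-fold in coverage alone. RPS3A was at 790 and 1180 TPM (log2 ratio 0.58) with 0.44 in coverage, and RPL9 at 554 and 911 TPM (log2 ratio 0.72) with 0.33 in coverage. All 5 kept a positive sign in each measure. Centred on the median of all genes, the log2 TPM ratios of RPL39L, RPL39, RPL6, RPS3A and RPL9 were 0.45, 0.19, 0.50, 0.30 and 0.43. None of these was past 1.5-fold.

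**Figure D3:**
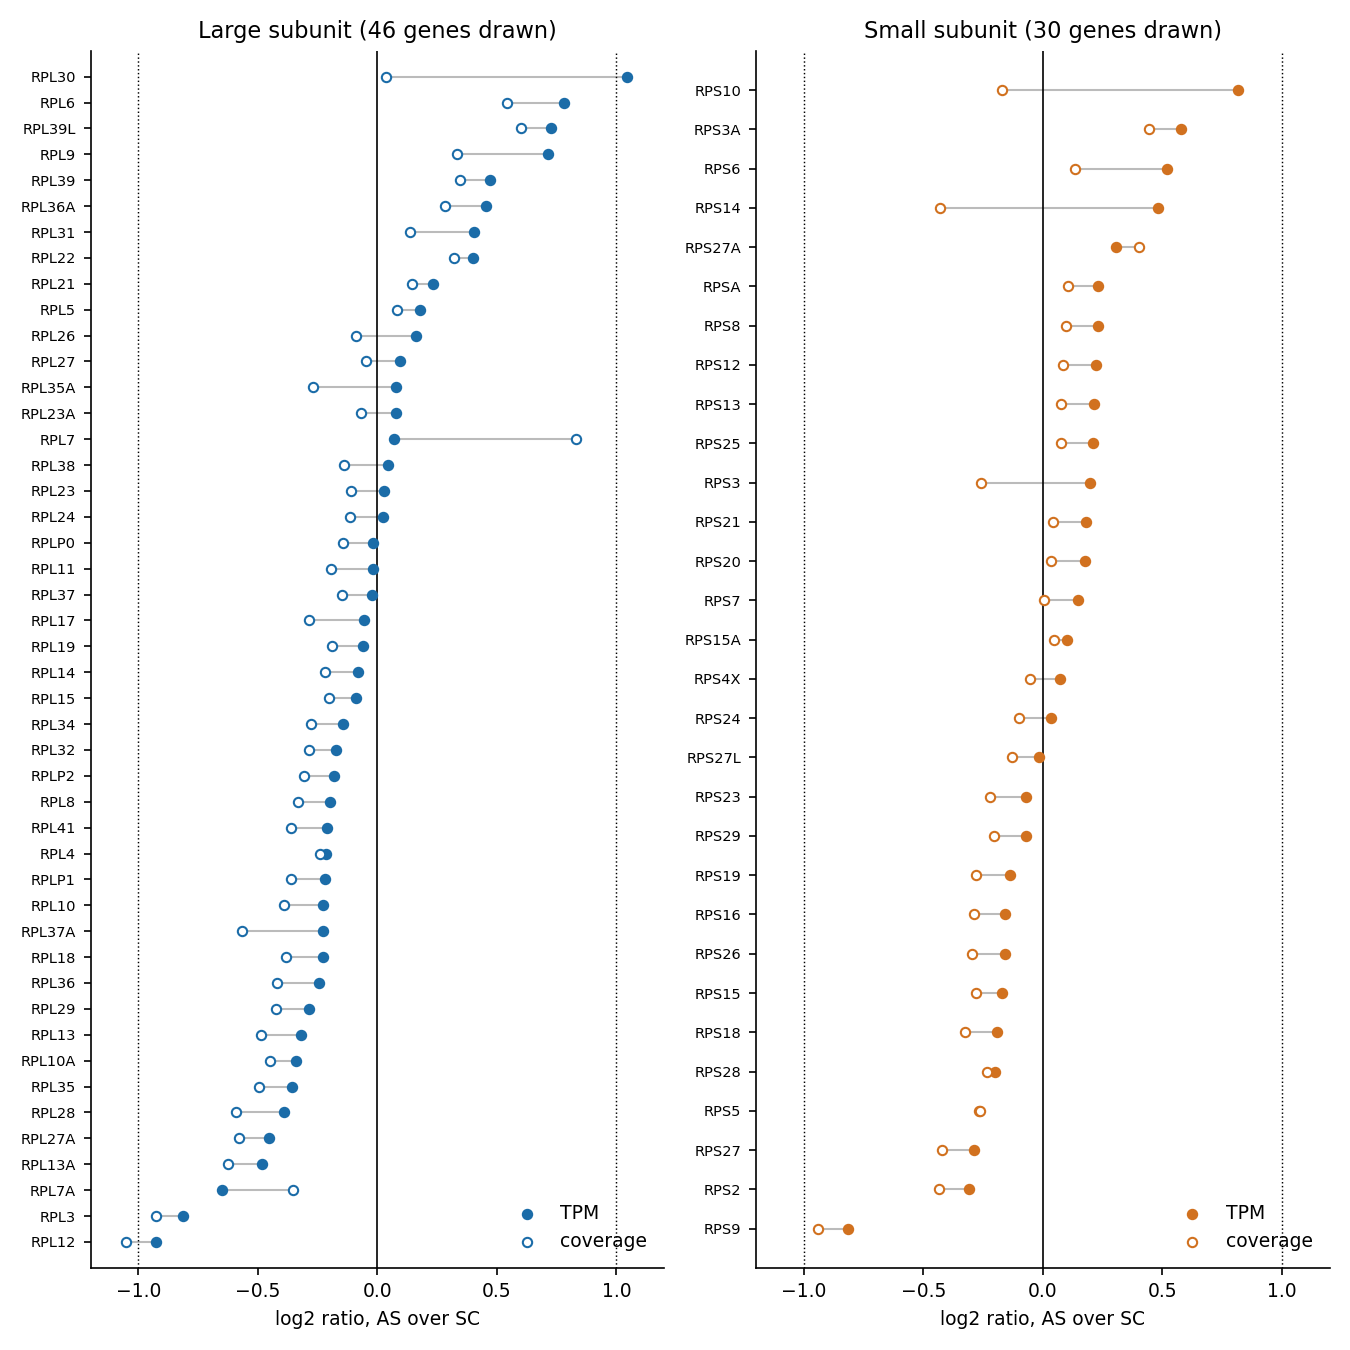
Log2 ratio of AS over SC (horizontal) of each measured member, in TPM (filled) and coverage (open), with a grey line joining the 2 values of a gene, large subunit at left and small subunit at right, ordered by the TPM ratio; dotted lines mark 2-fold, and a few members not reported here are not drawn. Long grey lines single out RPL30, RPS10, RPS14 and RPL7, and RPL12, RPL3 and RPS9 lie far left in both measures.

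For a few genes the measures did not share a sign or a size. RPL30, which binds its own transcript in yeast, was the only member whose TPM and coverage ratios differed by more than 1: it was at 771 TPM in SC against 1591 in AS, a log2 ratio of 1.04, while its coverage was 257 and 264 and its assembled locus 1760 and 1592 TPM. The 3 next, chosen after their values were seen, were RPS10, RPS14 and RPL7. RPS10 was at 1404 and 2473 TPM (log2 ratio 0.82), but its coverage was lower in AS (log2 ratio -0.17) and its assembled locus was at 2871 and 2501 TPM. An overlapping read-through gene, RPS10-NUDT3, was listed at 1852 and 1819 TPM. RPS14, whose loss underlies the anaemia of the 5q- syndrome, was at 618 and 863 TPM (log2 ratio 0.48), with a coverage log2 ratio of -0.43 and an assembled locus at 2280 and 863 TPM. RPL7 went the other way: its TPM was 1137 and 1193 (log2 ratio 0.07), its coverage 727 and 1295 (0.83) and its assembled locus 1136 and 2822 TPM.

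RPL7A, at 1337 and 853 TPM, had a log2 ratio of -0.65 in TPM and -0.35 in coverage, and its assembled locus was at 1367 and 1256 TPM. RPL13A, known for its part in an inhibitor of translation in interferon-treated cells, was at 3351 and 2395 TPM (log2 ratio -0.48) and -0.63 in coverage, and RPL27A at 630 and 459 TPM (log2 ratio -0.46) and -0.58 in coverage. The last 2 were past 1.5-fold in neither TPM nor locus, with RPL13A past it in coverage.

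The acidic stalk proteins RPLP0, RPLP1 and RPLP2, which form the stalk beside RPL12, were at log2 TPM ratios of -0.02, -0.22 and -0.18, and were at 3009, 2356 and 1596 TPM in SC. RPL5, RPL11 and RPL23, which bind MDM2 and thereby steady p53 when ribosome assembly fails, were at 0.18, -0.02 and 0.03 in TPM and 0.08, -0.19 and -0.11 in coverage. RPS27A, made as a fusion with ubiquitin, was at 1033 TPM in SC against 1277 in AS, with log2 ratios of 0.31 in TPM and 0.40 in coverage, and its assembled locus was at 1033 and 1551 TPM (0.59). RPS4X was at 718 and 755 TPM.

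Where the genes lie moved with the ratio. Chromosome 19 held 12 members, more than any other chromosome, and all 12 were lower in AS in TPM, coverage and assembled locus (over all genes with a locus, 34.9% were lower by that measure), at TPM ratios from -0.81 for RPS9 to -0.14 for RPS19. Their median was -0.26 in TPM and -0.40 in coverage. The other 68 had a median of 0.03 in TPM, with 32 below 0. The 990 other measured genes of chromosome 19 had a median of -0.13 in TPM, with 60.5% below 0. Of those genes 70.7% were below 0 in coverage, as were 62.2% of the 938 with a locus in the assembled locus. The chromosome 19 members had a median GC content of 58.1%, against 48.7% for the rest.

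The ratio followed GC content in the members as in other genes. Over 79 members with a GC content the Spearman correlation of GC with the ratio was -0.55 in TPM and -0.59 in coverage, and over 10650 measured genes -0.65 and -0.71; all these values share the same 2 libraries. In members below 45% GC the median log2 TPM ratio was 0.07 (11 members), against 0.87 in 3077 other genes and 0.50 in 99 other genes of at least 100 TPM. From 45 to 50% GC the median log2 TPM ratio was 0.08 (33 members), against 0.59 in 1831 other genes and 0.34 in 170 of at least 100 TPM. From 50 to 55% GC it was -0.16 (19 members), against 0.28 in 1702 other genes and 0.02 in 267 of at least 100 TPM. From 55 to 60% GC it was -0.31 (11 members), against -0.04 in 1891 other genes and -0.21 in 391 of at least 100 TPM. In the 5 members of 60% GC or more it was -0.20, against -0.24 in 2070 other genes and -0.34 in 397 of at least 100 TPM. The part of GC content in the ratios was not tested.

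**Figure D4:**
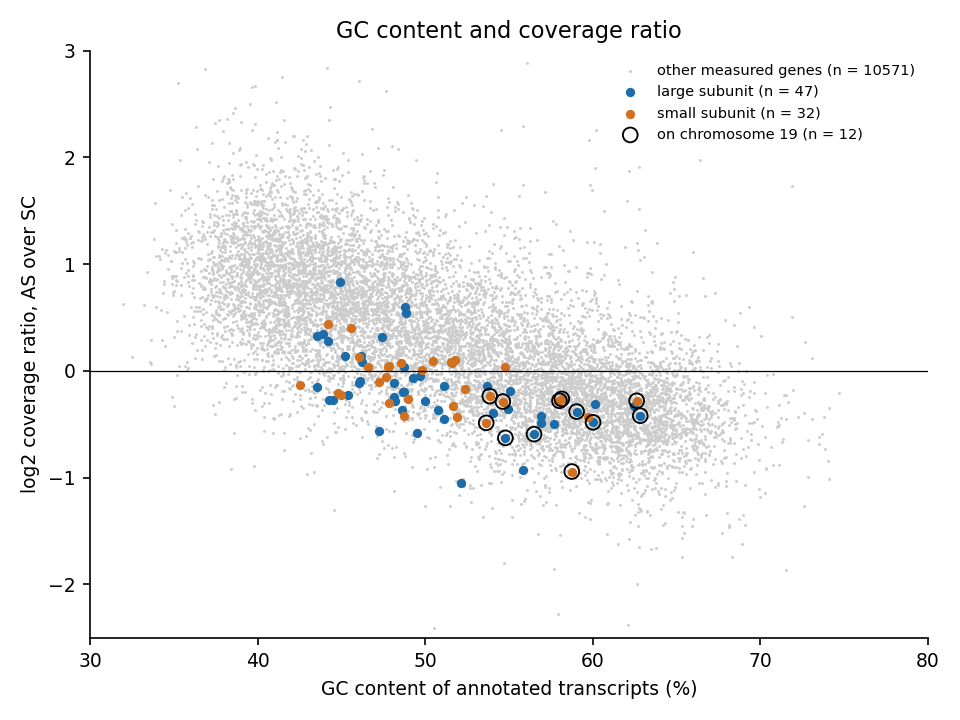
GC content of the annotated transcripts (horizontal, %) and log2 coverage ratio of AS over SC (vertical) for 47 large-subunit members (blue), 32 small-subunit members (orange) and 10571 other measured genes (grey), with the 12 members on chromosome 19 ringed; 7 genes beyond the axes are not drawn. The members follow the downward slope of the other genes and lie in its lower part below 60% GC, and every ringed gene is below 0.

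Genes related to the members were read alongside them. Of 7 ribosomal protein genes that the naming rule misses, none passed 2-fold in TPM, and the median log2 TPM ratio was -0.03. FAU, made as a fusion with a ubiquitin-like protein, was at 1149 and 1077 TPM. RPL7L1, an assembly factor related to RPL7, came nearest to 2-fold at 40.7 and 80.9 TPM (log2 ratio 0.97; 0.82 in coverage), and passed it in the assembled locus at 40.7 and 83.5 TPM (1.02). GNB2L1, the scaffold protein RACK1, was at 1591 and 1069 TPM (log2 ratio -0.57), but its assembled locus was at 1591 and 1973 TPM. Of 21 other mRNAs described as carrying a TOP tract, 3 of which are also in the list of 7, 15 were above 0, against 66.2% of all measured genes, none passed 2-fold in TPM, and the median was 0.28 in TPM and 0.17 in coverage, equal or close to that of all genes. EEF1A1, the elongation factor that brings aminoacyl-tRNA to the ribosome, was at 2816 and 5235 TPM (log2 ratio 0.89), and EEF2, which drives translocation, at 1622 and 1258 TPM (log2 ratio -0.37).

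Processed pseudogenes, reverse-copied from these mRNAs, were listed in 842 rows for 74 of the members, of which 611 were at 0 in both libraries. Their summed level was 3.54% of that of the members in SC and 3.68% in AS. In the 28 parents whose pseudogene rows reached a mean sum of at least 10 TPM, the ratio of the summed rows and that of the parent had a Spearman correlation of 0.74 in coverage (21 of 28 of the same sign). RPL3P4 was at 229 TPM in SC against 118 in AS (log2 ratio -0.95), next to RPL3 at -0.81. RPL7P1 was at 224 and 403 TPM and RPL7P9 at 172 and 311 TPM, both higher in AS, as was RPL7 in coverage. Reads of a near-identical copy can be shared with the parent gene, and these rows are uncertain for that reason.

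**Figure D5:**
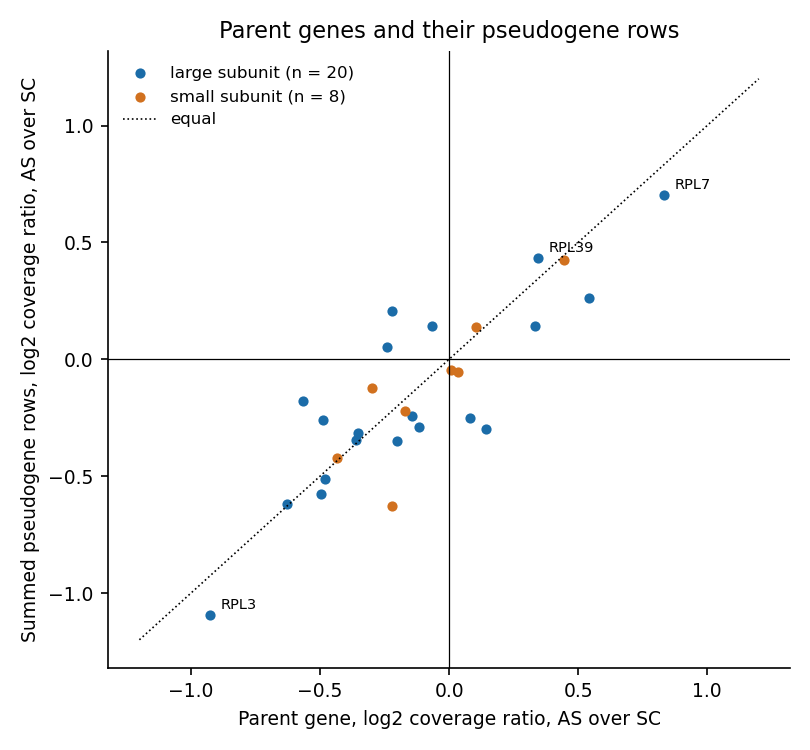
Log2 coverage ratio of AS over SC for 28 parent genes (horizontal) and for the sum of their annotated pseudogene rows (vertical), 20 of the large subunit in blue and 8 of the small subunit in orange, with the dotted line at equal ratios. RPL3 lies lowest and RPL7 highest in both.

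Small nucleolar RNAs (snoRNAs), which guide modification of ribosomal RNA, lie inside introns of these genes. In 29 of the members 60 snoRNA rows were found, 45 of them measured, and their sum was 380 TPM in SC against 553 in AS. The median log2 TPM ratio of the 45 was 0.45, with 34 above 0, against 66.2% of all measured genes, 8 higher by 2-fold or more, against 16.5%, and 2 lower by as much, against 2.17%. The 29 host genes had a median of -0.02 in TPM and -0.24 in coverage, and the 51 other measured members -0.06 and -0.21. Reads of a snoRNA and reads of the host's unspliced introns cannot be told apart in these rows.

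The microRNA that the AS treatment names, miR-494-3p, was compared with the 3' UTRs. Its mature sequence, from RefSeq's GRCh38.p14 table at chr14:101029681-101029702 on the plus strand, is shown with its seed, bases 2 to 8, in capitals.
miR-494-3p: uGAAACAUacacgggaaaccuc
The MIR494 row was at 0 in both libraries. That row is no measure of the 22-base mature microRNA, whose level in these cells is unknown here. The 7-base sites ATGTTTC and TGTTTCA, which overlap in 6 bases, were searched on the transcript strand of the longest 3' UTR of each gene's principal transcripts (GENCODE release 29, GRCh38). Of 79 measured members 16 (20.3%) held a site, against 24.98% of 10515 other measured genes. The searched 3' UTRs had a median of 95 bases in the members against 968 in the other genes. The members with a site had longer ones, from 886 bases in RPL31 to 7242 in RPL37, apart from RPL39L at 197 bases. Except in RPL39L and RPS28, they were longer than the gene's median annotated transcript, which was 793.5 bases for RPL31 and 637 for RPL37. Whether the transcripts made in these cells hold the sites was not tested. The members with a site had a median log2 TPM ratio of -0.05 and those without one -0.02, and in coverage -0.21 and -0.21. Other genes had 0.64 with a site and 0.20 without. These groups were not matched for GC content or 3' UTR length, and over all measured genes the TPM ratio fell with GC content (Spearman's rho -0.65). The part of the sites in the ratios was not tested.

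RPL15, RPL31 and RPL39L are shown because they carry a site and differ in their ratio. Capitals mark the site, and positions count from 1 at the first base of the UTR.
RPL15, 96 to 102 of 1488 bases: tagtctgcagATGTTTCttgaatgctt
RPL31, 631 to 637 of 886 bases: tgctgagattATGTTTCaccagcattt
RPL39L, 187 to 193 of 197 bases: tgaaagctttTGTTTCAaaaa
RPL15 was at 413 TPM in SC against 388 in AS (log2 ratio -0.09), RPL31 at 906 and 1198 TPM (0.40) and RPL39L at 55.2 and 92.0 TPM (0.73).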

How the data were processed

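Per the file headers, the authors deposited for each library a coverage signal, an FPKM and a TPM for every annotated gene and for every locus assembled from the reads. Which aligner and which quantification program made them was not stated in the sources here. The submitters' processing notes name GRCh38 and hg38, whereas the tables' coordinates are those of GRCh37. Libraries were made from total RNA with a directional kit, per the labels' protocols. Rows of 1 symbol were summed. Ratios were taken as log2((AS + 1)/(SC + 1)) from the deposited TPM and as log2((AS + 0.1)/(SC + 0.1)) from the deposited coverage, which was not scaled for depth. The added constant shrinks ratios of low genes. The assembled locus was the one of highest TPM on the same strand that shared at least 50% of its own or the gene's span. GC content, lengths and 3' UTRs came from GENCODE release 29 by gene identifier, and start windows and the microRNA from RefSeq tables, with 64 of 83 members matched. The files hold no read counts, so the depth in reads is unknown and counting error could not be given. The members and lists were chosen with earlier results of these data known. Genes named in full were the 6 highest and 6 lowest TPM ratios, the 5 most abundant of each subunit, members whose TPM and coverage ratios differed by more than 1, the stalk proteins, paralogs, the MDM2-binding members and RPS27A. Others with values are RPS10-NUDT3, RPS14, RPL7, RPL39, RPL15, RPL22, RPL31, RPS19 and RPS28, named after their values were seen. Some genes that the rule names are not reported here. The TPM ratio, the 2-fold count and the trimmed mean were tested on simulated data, where 99% of 4-fold raised and 82% of 4-fold lowered genes were called. The other steps were not tested in this way. The calculations used Python 3.11.15, pandas 2.3.3 and numpy 2.4.6.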

Additional observations from a re-analysis of the deposited data

How the results depend on the processing

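The alternatives were other pseudocounts, filters, units and scalings. The assembled locus of highest level, coverage centred on all genes and the 1.5-fold threshold were chosen after seeing the data. The count of members at least 2-fold higher was 0, not 1, in FPKM, in coverage, with TPM or coverage centred on the median of all genes and with trimmed mean scaling. The count at least 2-fold lower was 1 in FPKM, coverage and the assembled locus of highest level, 2 in the assembled locus of best overlap, and 3 with TPM or coverage centred on all genes and with trimmed mean scaling. The 1.5-fold counts of 5 higher and 4 lower also depended on scaling. They were 1 higher and 13 lower with TPM centred on all genes and with trimmed mean scaling. In centred coverage they were 1 higher and 18 lower. The members' median log2 ratio was -0.14 in FPKM, -0.21 in coverage, -0.32 centred, -0.33 with trimmed mean scaling and -0.42 in centred coverage. Without the mitochondrial genome, whose share was 14.6% in SC and 16.2% in AS, the members' median was -0.0051. That was the value nearest 0, and it shows almost no shift. The members' median was below 0 under all 15 settings, but its size depended on the scaling. The small-subunit median turned negative in FPKM (-0.033), coverage (-0.17), both assembled locus settings (-0.039), TPM centred on all genes (-0.21), trimmed mean scaling (-0.22) and centred coverage (-0.37). The difference of the subunit medians stayed below 0 under all 15 settings. A scaling common to all genes hardly moves this difference. Centring, trimmed mean scaling, FPKM and rescaling without the mitochondrial genome or the members therefore repeated the -0.15 of TPM. Centred coverage likewise repeated the -0.07 of coverage. Those settings are no separate support.

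RPL6 went to -9.14 in the assembled locus of best overlap, which matched a locus near 0 there. RPL30 went to -0.14 in both assembled locus settings and -0.17 in centred coverage. RPS10 went to -0.17 in coverage, -0.20 in both locus settings and -0.37 in centred coverage. RPS14 went to -0.43 in coverage, -1.40 in both locus settings and -0.63 in centred coverage. RPL7 went to -0.036 in FPKM, -0.21 centred on all genes and -0.22 with trimmed mean scaling. For the other reversals the cause was not tested. No paired analysis was possible because each group held 1 library. The absence of replicates limits every value to these 2 libraries.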
